A study of Mus musculus with 3 samples.

Results

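The 8 genes described here encode granule proteins and receptors of myeloid cells and mast cells: cathepsin G (Ctsg), myeloperoxidase (Mpo), proteinase 3 (Prtn3), the mast cell carboxypeptidase Cpa3, the 3 chains of the high-affinity IgE receptor (Fcer1a, Ms4a2 and Fcer1g) and Csf1r, the receptor for colony-stimulating factor 1. They were found by gene symbol among the probes that are not controls, which gave 11 of 41174 probes and 8 of 27725 genes, with 3 probes for Csf1r, 2 for Fcer1g and 1 for each other gene. Their RNA was measured on 3 mouse arrays of 2 colours, each with treated RNA in the red dye Cy5 and untreated RNA in the green dye Cy3.

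The treatment was phospho-ascorbate (pAsc), which is vitamin C made stable in culture by a phosphate group, at 800 µM. T lineage cells cultured for 17 days with pAsc in the final 72 h were set against untreated cells of day 17. T lineage cells cultured for 14 days with pAsc in the final 24 h were set against untreated cells of day 14, and OP9-DL1 stromal cells with pAsc for 24 h against untreated OP9-DL1 cells in continuous culture. The T lineage cells of all 4 T cell samples were grown from C57BL/6 bone marrow progenitors on OP9-DL1 cells with the cytokines Flt3L and IL7. Stromal cells were removed from them by letting them adhere for 30 min before RNA was taken. OP9-DL1 is labelled as an osteoblast line of strain B6-C3Hf1. As background, OP9 comes from the skull bone of op/op mice, which lack working Csf1, the ligand of Csf1r, and the DL1 line also carries the Notch ligand Dll1. Whether a sample held RNA of 1 culture or of several is not given in the sources used here.

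Ctsg, Mpo and Prtn3 are made in large amounts by the precursors of neutrophils and monocytes, which pack them into the first granules they form. Cpa3 is stored in mast cell granules together with other proteases, and in mice it is also transcribed in early blood progenitors before a lineage is chosen. On mast cells and basophils the IgE receptor consists of Fcer1a, which binds IgE, Ms4a2, which amplifies the signal, and Fcer1g, a small signalling chain that several other Fc receptors and NK cell receptors also use. Csf1r carries the survival signal of monocytes and macrophages.

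The 250 bases before the start of Cpa3, Ctsg and Fcer1g are shown because these were the 3 genes with signals over 10 times the local background in T cells, and Cpa3 and Ctsg were both lower with pAsc at 72 h. The sequences are those of RefSeq on build GRCm38.p6, each read 5′ to 3′ on the minus strand; the RefSeq promoters matched 7 of the 8 genes, all but Csf1r. They lie at chr3:20242182-20242431 for Cpa3, at chr14:56102575-56102824 for Ctsg and at chr1:171234350-171234599 for Fcer1g. Capitals mark matches on either strand to AGATAA or TGATAA (letters read by GATA factors), GAGGAA (read by some ETS factors), CAGNTG (an E-box) or TATAAA.
Cpa3: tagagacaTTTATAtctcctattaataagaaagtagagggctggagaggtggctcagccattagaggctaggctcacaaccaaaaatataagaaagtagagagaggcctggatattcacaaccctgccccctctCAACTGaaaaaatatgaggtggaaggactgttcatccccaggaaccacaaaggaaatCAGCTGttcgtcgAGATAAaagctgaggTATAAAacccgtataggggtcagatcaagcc
Ctsg: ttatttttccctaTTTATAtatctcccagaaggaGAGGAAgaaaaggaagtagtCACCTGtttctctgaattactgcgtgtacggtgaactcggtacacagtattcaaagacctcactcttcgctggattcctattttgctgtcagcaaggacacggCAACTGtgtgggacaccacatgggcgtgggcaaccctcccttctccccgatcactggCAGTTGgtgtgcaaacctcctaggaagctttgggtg
Fcer1g: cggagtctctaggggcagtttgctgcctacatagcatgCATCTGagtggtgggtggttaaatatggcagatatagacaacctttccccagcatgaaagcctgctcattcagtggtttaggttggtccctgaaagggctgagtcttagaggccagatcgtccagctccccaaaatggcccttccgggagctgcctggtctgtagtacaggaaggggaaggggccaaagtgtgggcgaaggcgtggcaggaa
In these windows the Cpa3 promoter held 1 AGATAA, 46 bases before the start, 2 CAGNTG at 116 and 59 bases, and 2 TATAAA at 242 and 31 bases. The Ctsg promoter held 3 CAGNTG at 196, 93 and 36 bases, 1 GAGGAA at 216 bases and 1 TATAAA at 237 bases. The Fcer1g promoter held 1 CAGNTG at 212 bases. No capital letters are shared by 2 motifs. Among 32851 promoters of this length, 44.8% held CAGNTG, 23.3% GAGGAA, 12.4% TATAAA, 9.99% AGATAA and 7.94% TGATAA. The motifs were chosen after the sequences were seen, and a match describes letters only.

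The number of arrays limits the precision: with 1 array per comparison and no dye swap no test was possible, and a dye effect on a gene cannot be told apart from the treatment. Genes were compared by a rule of size instead, a difference of 2-fold or more, over the genes whose 2 channels were both well above background, called measured here. Repeat spots of 1 probe differed by an SD of 0.066 to 0.070 on the log2 scale, and different probes of 1 gene by an SD of 0.14 to 0.18, but neither holds any spread between cultures. All 9 T lineage markers examined were above background in the 4 T cell samples, against 2 of 9 in treated and 1 of 9 in untreated stromal cells. Stromal markers were also present in the T cells, with 9 of 9 above background in treated and 8 of 9 in untreated cells of day 17, and 8 of 9 in treated and 7 of 9 in untreated cells of day 14.

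The 8 genes were far apart in brightness. Cpa3 reached 247 times its local background in T cells, Fcer1g 55.5 times and Ctsg 44.3 times. The other 5 genes stayed under 5 times in all 6 channels: Mpo reached 4.56 times, Csf1r 3.72, Prtn3 2.15, Fcer1a 2.04 and Ms4a2 1.45. Only Ctsg, Mpo, Fcer1g and Csf1r were above background in all 6 channels, and Ms4a2 was above it in none. The response of the dim 5 is therefore read from signals near the floor of the arrays.

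**Figure D1:**
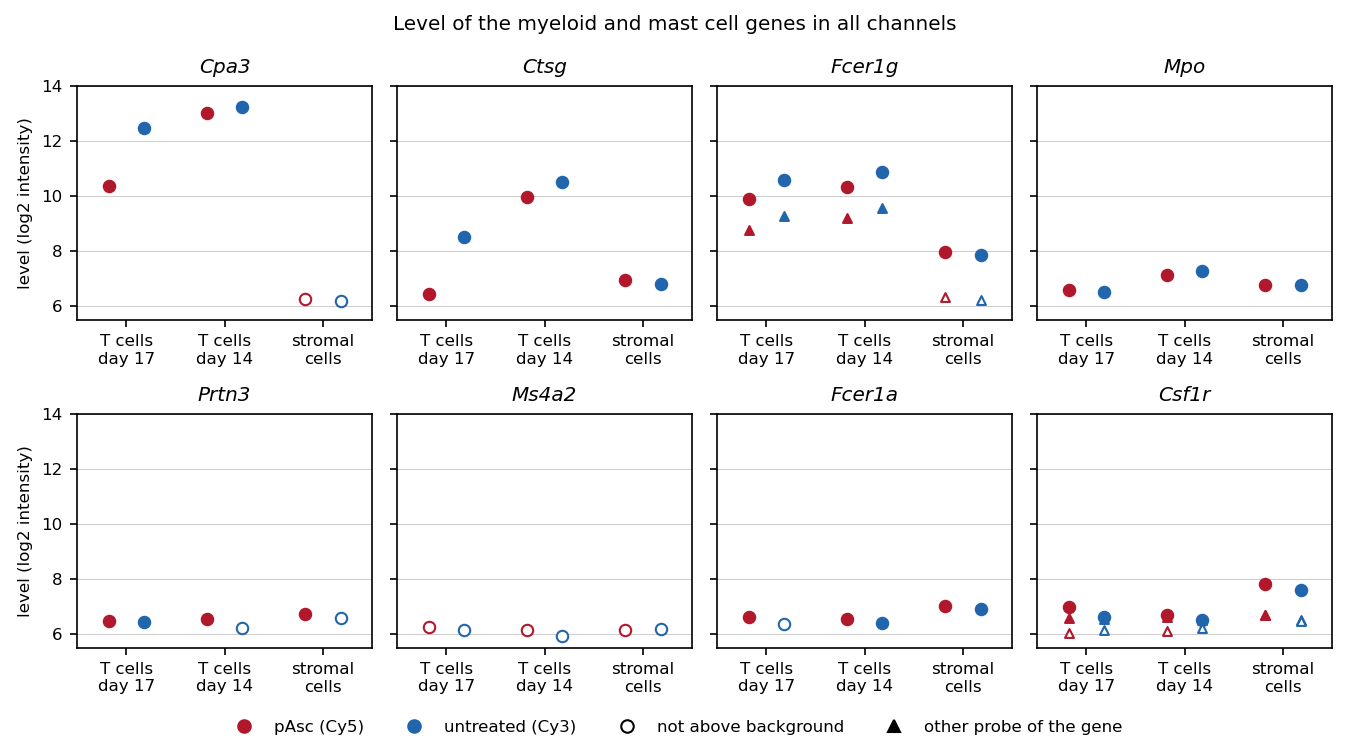
Level of each gene (vertical axis, log2 intensity after scaling of all channels) in treated (red, left of each pair) and untreated (blue) samples of the 3 arrays; circles are the brightest probe, triangles the other probes of Fcer1g and Csf1r, and open symbols lie below background. Cpa3 and Ctsg have their lowest T cell level in treated cells of day 17, at 10.36 and 6.43, while Mpo, Prtn3, Ms4a2 and Fcer1a stay between 5.92 and 7.29 in every sample.

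Cpa3, the carboxypeptidase of mast cell granules, was the brightest of the 8 in T cells and lower with pAsc at 72 h. Its mean signal was 2365 in treated and 3935 in untreated T cells of day 17, 13036 in treated and 5545 in untreated T cells of day 14, and 65.1 in treated and 27.2 in untreated stromal cells, where neither channel was above background. After subtraction of the local background, Cy5 signals of measured probes had a median of 2.49 to 2.56 times the Cy3 signals on the 3 arrays, so the channels are compared below as log2 levels after loess and scaling. On that scale Cpa3 stood at 10.36 in treated and 12.49 in untreated cells of day 17, and at 13.03 in treated and 13.25 in untreated cells of day 14. The treated cells of day 17 were thus low, and the other 3 T cell samples lay within 0.76 of each other. The log2 ratio of pAsc over untreated was -2.13 at 72 h, a 4.37-fold lower level, and -0.21 at 24 h, a 1.16-fold lower level. The 72 h ratio was 2nd from the lowest of 16280 measured genes, the 24 h ratio 1414th of 16970. The probe lies on the minus strand of chromosome 3 at 20115674 to 20115733 on build mm9. In these mixed cultures fewer cells that carry a transcript and less of it per cell cannot be told apart.

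Ctsg, the serine protease of neutrophil and monocyte granules, followed at a lower level. Its mean signal was 126 in treated and 265 in untreated T cells of day 17, 1653 in treated and 975 in untreated T cells of day 14, and 103 in treated and 38.0 in untreated stromal cells. The log2 level was 6.43 in treated and 8.50 in untreated cells of day 17, 9.97 in treated and 10.52 in untreated cells of day 14, and 6.95 in treated and 6.78 in untreated stromal cells. In treated cells of day 17 it was thus no higher than in the stromal line, near the floor of the arrays, and the signal was only 2.31 times its local background, against 14.3 times in untreated cells. The log2 ratio was -2.07 at 72 h, a 4.19-fold lower level and the 5th lowest of all measured genes, and -0.55 at 24 h, a 1.46-fold lower level and the 56th lowest. The size at 72 h depends on how the dim treated channel is corrected: it was -2.80 without the added offset and -3.34 in the log ratio of the authors' deposited files. When genes had to reach 3 times the local background in both channels, a limit set after the values were seen, Ctsg was no longer among the measured genes at 72 h. Its probe lies on the minus strand of chromosome 14 at 56718795 to 56718854 on build mm9.

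Mpo and Prtn3, which share the first granules with Ctsg, were near the floor of the arrays on every array. In untreated cells of day 17 their levels were 6.51 and 6.42, where 95% of the probes below background lay under 6.34, so a difference as large as that of Ctsg could not have been seen. Mpo had log2 levels of 6.58 in treated and 6.51 in untreated cells of day 17, 7.13 in treated and 7.29 in untreated cells of day 14, and 6.77 in both stromal samples. Its log2 ratio was 0.07 at 72 h, -0.16 at 24 h and 0.00 in stromal cells, within or close to the spread between probes. With the log ratio of the authors' deposited files it was -0.24 at 72 h and -0.62 at 24 h, so the sign at 72 h depends on the correction. Prtn3 had levels of 6.45 in treated and 6.42 in untreated cells of day 17 and a log2 ratio of 0.03. At day 14 and in stromal cells it was above background only in the treated channel, at 6.53 and 6.73. No direction can be given there, since the log2 ratio was 0.33 at 24 h and 0.16 in stromal cells after loess but -0.30 and -0.45 with median centring on measured genes. On all arrays these signals were at most 2.15 times the local background. Mpo stood above the stromal line only at day 14, by 0.36 log2 units in treated and 0.52 in untreated cells.

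Of the IgE receptor chains, the shared signalling chain Fcer1g was bright and the chains particular to the receptor were not. Fcer1g had log2 levels of 9.88 in treated and 10.58 in untreated cells of day 17, 10.34 in treated and 10.86 in untreated cells of day 14, and 7.96 in treated and 7.86 in untreated stromal cells. It was lower with pAsc on both T cell arrays, by 1.63-fold at 72 h with a log2 ratio of -0.70 and by 1.44-fold at 24 h with a log2 ratio of -0.52, and so did not reach 2-fold on either. Its other probe gave -0.52 at 72 h and -0.38 at 24 h. These ratios were the 177th and the 69th lowest of the measured genes. The difference between the arrays, -0.18, was close in size to the spread between probes. With median centring of all probes the ratio was -0.06 at 72 h and -0.04 at 24 h, where the medians of all measured genes were 0.54 and 0.41. The probes lie on the minus strand of chromosome 1 at 173159794 to 173159853 and at 173159846 to 173159918 on build mm9. Ms4a2, the amplifying chain, was below background in all 6 channels, at levels between 5.92 and 6.25, and no ratio of it can be read. Fcer1a, the chain that binds IgE, had levels of 6.59 in treated and 6.35 in untreated cells of day 17, where the untreated channel was below background, and 6.54 in treated and 6.40 in untreated cells of day 14. It stood at 7.0 in treated and 6.91 in untreated stromal cells, so the T cells showed no more of it than the line they were grown on.

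Csf1r, the macrophage growth factor receptor, was dim in T cells and somewhat brighter in the stromal line. Its brightest probe had log2 levels of 6.96 in treated and 6.63 in untreated cells of day 17, 6.69 in treated and 6.51 in untreated cells of day 14, and 7.80 in treated and 7.60 in untreated stromal cells. The log2 ratio of pAsc over untreated was 0.33 at 72 h, 0.18 at 24 h and 0.19 in stromal cells, but -0.14, -0.29 and -0.12 with median centring on measured genes, so its sign depends on the scaling. The next probe gave 0.05 at 72 h and 0.12 at 24 h, and the remaining probe was below background in both channels of both T cell arrays. Against stromal cells the level was 1.79-fold lower in treated T cells of day 17, 1.97-fold lower in untreated T cells of day 17, 2.15-fold lower in treated T cells of day 14 and 2.13-fold lower in untreated T cells of day 14. The other probes were dimmer, at levels of 6.05 to 6.62 in T cells and 6.46 to 6.68 in stromal cells, so the step rests on the brightest probe. Csf1, its ligand, gave far brighter signals, with a log2 ratio of 0.18 at 72 h, 0.49 at 24 h and -0.08 in stromal cells. Il34, the other ligand, had ratios of 0.04 at 72 h, 0.07 at 24 h and -0.27 in stromal cells.

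Counted over all 8 genes, 2 of the 6 measured at 72 h were at least 2-fold lower with pAsc, Cpa3 and Ctsg, against 0.375% of all measured genes. None of the 6 was at least 2-fold higher, against 0.227% of all. The median log2 ratio of the 6 was -0.34, where all measured genes had 0.01. At 24 h, 0 of 6 passed 2-fold downward and 0 upward, against 0.0118% and 0.312% of all, with a median of -0.18 where all genes had 0.02. In stromal cells 0 of 5 passed it downward and 0 upward, against 0.118% and 0.432% of all, with a median of 0.11 where all genes had 0.02. Median centring of all probes in place of loess moved the median of all measured genes to 0.54 at 72 h, 0.41 at 24 h and 0.64 in stromal cells. Relative to those shifts the 6 measured genes had a median of -0.65 at 72 h and -0.44 at 24 h, and the 5 in stromal cells one of -0.48, so the sign in stromal cells depends on the centring. Under that centring Cpa3 had a log2 ratio of 0.42 at 24 h, the shift of all genes itself, and Cpa3 and Ctsg stayed at least 2-fold lower at 72 h, at -1.42 and -1.79.

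**Figure D2:**
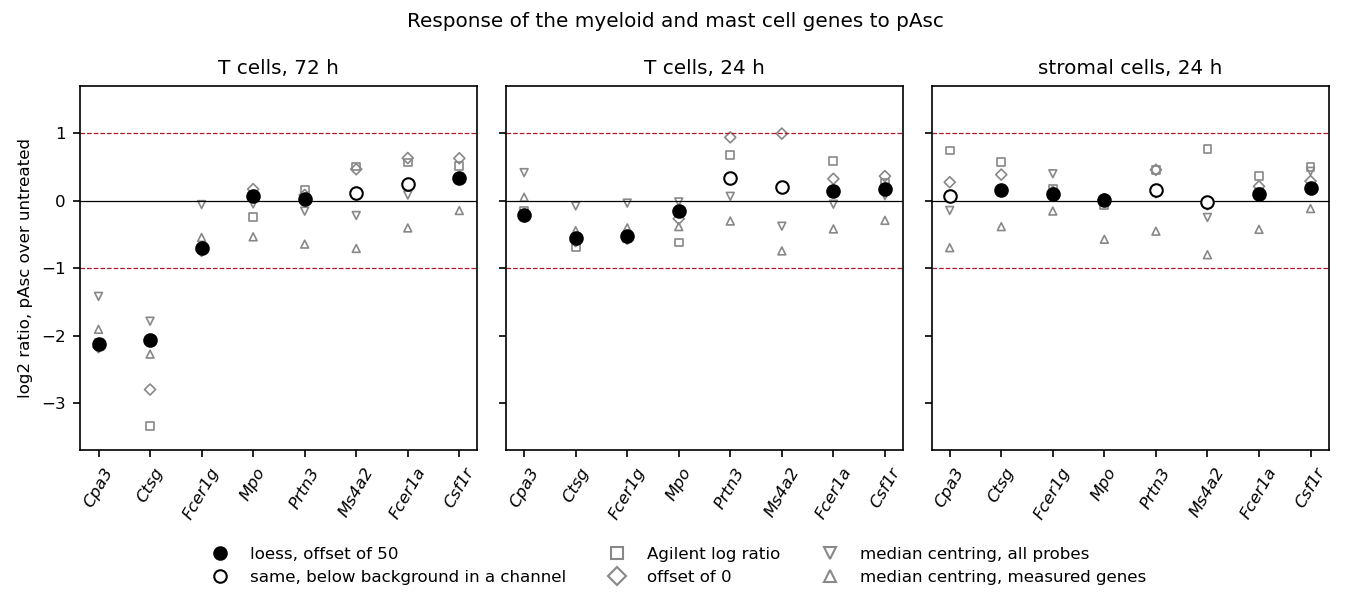
Log2 ratio of pAsc over untreated (vertical axis) for each gene on the 3 arrays; black points are the values after loess with an offset of 50, open circles those with a channel below background, grey symbols other corrections, and dashed lines 2-fold. Cpa3 and Ctsg lie below the lower line at 72 h under every correction drawn, and Ctsg spans -1.79 to -3.34.

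**Figure D3:**
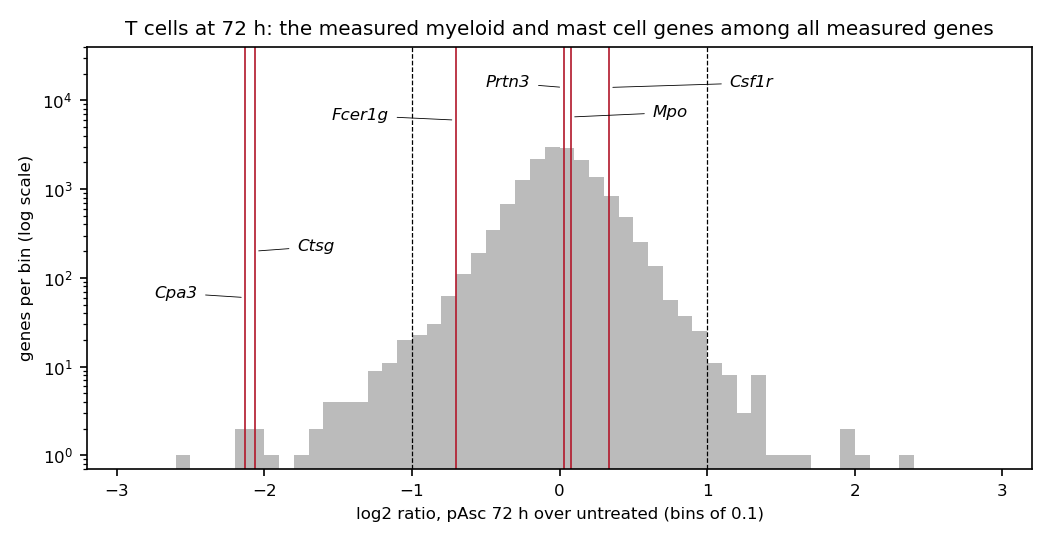
Number of measured genes (vertical axis, log scale) by log2 ratio of pAsc over untreated in T cells at 72 h, with red lines at the 6 measured genes of the set and dashed lines at 2-fold. Cpa3 at -2.13 and Ctsg at -2.07 lie in the far lower tail, Fcer1g at -0.70 on the lower flank, and Prtn3, Mpo and Csf1r within the body of the distribution.

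Comparing the 72 h with the 24 h array asked whether the genes responded alike at the 2 times. The arrays differ in day of culture as well as in hours of pAsc, which cannot be told apart. Of the 5 genes measured on both, the log2 ratio at 72 h was at least 1 below that at 24 h for Cpa3 and Ctsg, against 0.362% of all genes, and at least 1 above it for 0, against 0.191%. The difference was -1.92 for Cpa3, the 4th lowest of 15739 genes, and -1.52 for Ctsg, the 10th lowest. It was 0.23 for Mpo and 0.15 for Csf1r.

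The time in culture was followed within each dye. In treated cells 2 of 7 measured genes were at least 2-fold lower at day 17 than at day 14, Ctsg by 11.6-fold and Cpa3 by 6.37-fold, against 5.35% of all genes, and 0 were at least 2-fold higher, against 6.92%. In untreated cells 1 of 5 was at least 2-fold lower at day 17, Ctsg by 4.05-fold, against 3.61% of all genes, and 0 were at least 2-fold higher, against 7.74%. Cpa3 was 1.69-fold lower in untreated cells of day 17 than in those of day 14. Ctsg was thus lower at the later day with and without pAsc, while Cpa3 passed 2-fold in treated cells only; the difference between the dyes is the same quantity as that between the arrays above. Day 17 minus day 14, Mpo had a log2 difference of -0.55 in treated and -0.79 in untreated cells, and Fcer1g one of -0.47 in treated and -0.29 in untreated cells. That of Mpo depends on the correction. It was -1.01 in treated and -1.45 in untreated cells with an offset of 0, and -1.87 and -2.27 with the 75th percentile of the Agilent signals. The medians were -0.47 for the 7 genes in treated and -0.76 for the 5 genes in untreated cells, where all genes had 0.00 in both. Csf1r was 0.26 higher in treated and 0.11 higher in untreated cells. Levels set across arrays rest on the scaling and correction of the channels. With quantile scaling the log2 difference of Ctsg was -3.34 in treated and -2.14 in untreated cells. It was -4.37 and -2.17 with an offset of 0, and -4.80 and -2.16 with the 75th percentile of the Agilent signals. The treated Ctsg signal of day 17 was only 2.31 times its local background, so the size of the 11.6-fold depends on the correction.

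Against the stromal line, Cpa3 was at least 17.4-fold higher in treated T cells of day 17, at least 78.3-fold higher in untreated T cells of day 17, at least 111-fold higher in treated T cells of day 14 and at least 132-fold higher in untreated T cells of day 14. These are lower bounds, since Cpa3 was below background in stromal cells. Ctsg was 3.28-fold higher in untreated T cells of day 17, 8.12-fold higher in treated and 13.3-fold higher in untreated T cells of day 14. Its stromal signals were at most 1.94 times their local background, so these sizes depend on the correction. For untreated T cells of day 14 the log2 difference was 3.73, but 4.75 with an offset of 0 and 5.86 with the 75th percentile of the Agilent signals. In treated T cells of day 17 Ctsg was 1.43-fold lower than in treated stromal cells, where both signals lay near the floor. Fcer1g was 3.77-fold higher in treated and 6.59-fold higher in untreated T cells of day 17, and 5.20-fold higher in treated and 8.04-fold higher in untreated T cells of day 14. Signals of Cpa3, Ctsg and Fcer1g in the T cell samples were thus above those of the line they were grown on, apart from Ctsg after 72 h of pAsc.

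Genes with the most similar course over the 4 T cell samples were ranked among 17026 others by the root mean square difference of their log2 levels, each gene taken relative to its own mean. For Cpa3 these were Lmo1 at 0.17, Khdc1a at 0.26, Clec4e at 0.26, Lyl1 at 0.28 and Clec4d at 0.28, where Cpa3 itself spanned 2.88. Clec4e and Clec4d are lectin receptors of myeloid cells. For Ctsg they were 4930519L02Rik at 0.17, Vat1l at 0.26, Lyl1 at 0.36, Muc13 at 0.38 and Hbb-bt at 0.40, where Ctsg spanned 4.08. Khdc1a and the globin gene Hbb-bt have near-identical relatives whose RNA may bind the same probe. Lyl1, a transcription factor of early blood progenitors, stood on both lists, and 1 gene in each case lay within 0.2. For Fcer1g, which spanned 0.99, 487 genes lay within 0.2, with Nrros the nearest at 0.02. Mpo, Csf1r, Prtn3 and Fcer1a moved so little that 2674 to 7780 genes lay within 0.2 of them. For these 4 the likeness says little, and their nearest genes, D5Ertd579e for Mpo, Tnks2 for Csf1r, Eif3h for Prtn3 and Cwf19l2 for Fcer1a, are given by name only. With 4 samples these distances are a description.

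Other genes of the same granules and receptors show what accompanied the 8. Of 16 other granule proteins of neutrophils and monocytes, 6 were measured in T cells at 72 h. With pAsc 1 of these passed 2-fold downward and 0 upward, against 0.375% and 0.227% of all measured genes. It was Lyz2, a lysozyme, at a log2 ratio of -1.27, and the median was -0.25. Lyz2 was brighter in the stromal line, at log2 levels of 9.39 in treated and 9.91 in untreated cells. In T cells it stood at 7.46 in treated and 8.73 in untreated cells of day 17, and at 9.28 in both samples of day 14. Its ratio in stromal cells was -0.52, and 1 of its 2 probes was measured. The count of lower genes was 3 with the log ratio of the authors' deposited files and 3 with plain background subtraction, 2 with median centring on measured genes and 0 on all probes, where 1 was higher. Elane, the elastase that is packed with Ctsg, Mpo and Prtn3, was below background in all 6 channels. At 24 h 8 of the list were measured, with a median of -0.03. Of these 0 passed 2-fold downward and 1 upward, against 0.0118% and 0.312% of all measured genes. The 1 was the protease inhibitor Slpi at 1.18, which was also higher in stromal cells, at 1.13.

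Genes that load and process granule proteases did not pass 2-fold. All 14 were measured in T cells, with 0 past 2-fold in each direction at either time and medians of -0.15 at 72 h and 0.03 at 24 h. The lowest at 72 h were Srgn, the proteoglycan core on which granule proteases are stored, at -0.82, and Cst7, a protease inhibitor, at -0.78. Ctsc, which cuts the pro-forms of these serine proteases, had 0.05. With median centring of all probes the 72 h median of the list equalled that of all genes to within 0.01.

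Of 20 other mast cell and basophil genes, 10 were measured at 72 h and 11 at 24 h, and 0 passed 2-fold upward or downward at either time. The medians were 0.12 at 72 h and -0.19 at 24 h. Of the measured genes 5 were below 0 and 5 above at 72 h, and 7 below and 4 above at 24 h. The mast cell proteases Cma1, Tpsb2, Tpsab1, Mcpt1, Mcpt2, Mcpt4 and Mcpt9 were below background in every sample. Kit, the stem cell factor receptor of mast cells and progenitors, had 0.51 at 72 h and -0.22 at 24 h, and Gata2, a transcription factor of both, 0.65 at 72 h and 0.05 at 24 h. The other probe of Gata2 gave 0.28 at 72 h and -0.21 at 24 h. Gata2 was brighter in the stromal line, at 9.77 in treated and 9.16 in untreated cells, with a ratio of 0.61. In T cells of day 17 it stood at 8.58 in treated and 7.93 in untreated cells. Cpa3 was thus bright where the other mast cell proteases named above were below background. Mcpt8, a protease of basophils, was measured at 24 h only, at -0.32. Of 8 eosinophil granule genes, 6 were on the array and 0 were measured at 72 h, against 1 at 24 h.

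Of 15 measured genes of Fc receptor signalling and related adaptors, 0 passed 2-fold upward or downward at 72 h or 24 h, with medians of -0.06 at 72 h and -0.19 at 24 h. Plcg2, a phospholipase, had -0.91 at 72 h and -0.52 at 24 h. Tyrobp, an adaptor of the same kind as Fcer1g, had -0.23 at 72 h and -0.31 at 24 h. With median centring of all probes the median of the list was 0.54 at 72 h, or -0.01 relative to all genes, and 0.35 at 24 h, or -0.06 relative to all genes. With the log ratio of the authors' deposited files and with plain background subtraction 1 gene was at least 2-fold lower at 72 h. Other Fc receptors had 5 measured genes and 0 past 2-fold at each time, with medians of -0.08 at 72 h and 0.41 at 24 h, and Fcgr3, which needs Fcer1g at the cell surface, had -0.08 at 72 h and 0.32 at 24 h. The other probe of Fcgr3 gave -0.25 at 72 h and 0.003 at 24 h.

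Around Csf1r, 9 other receptors and ligands of the colony-stimulating factors and related cytokines were measured at 72 h with 0 past 2-fold and a median of 0.04. At 24 h, 1 of 10 was at least 2-fold lower, the cytokine Csf2 at -1.55, and 0 were at least 2-fold higher. Over all measured genes these shares were 0.0118% and 0.312%. Of 14 measured myeloid transcription factors, 2 were at least 2-fold lower at 72 h, Nfe2 at -1.54 and Myb at -1.29, and 0 at least 2-fold higher, with a median of -0.12. Over all measured genes 0.375% were lower and 0.227% higher. These counts depend on the scaling. Median centring on measured genes gave 1 lower, and on all probes 0 lower and 4 higher. The 4 probes of Myb ranged from -1.29 to -0.44. Cebpa, which drives the first granule genes of myeloid precursors, had -0.28 at 72 h and 0.26 at 24 h. Its other probe gave -0.02 at 72 h and 0.18 at 24 h. Cebpa was brighter in the stromal line, at log2 levels of 10.66 in treated and 11.08 in untreated cells, with a ratio of -0.42. In T cells it stood at 9.61 in treated and 9.89 in untreated cells of day 17, and at 8.07 and 7.81 at day 14. At 24 h 0 of 14 passed 2-fold in either direction. Of 12 measured surface genes of macrophages and monocytes 0 passed 2-fold at 72 h, with a median of 0.01. With the deposited log ratio, an offset of 0, plain background subtraction or centring on measured genes, 1 was at least 2-fold higher. Median centring of all probes gave 3 higher. Among 5 subunits of the NADPH oxidase 0 passed, with a median of -0.07. In stromal cells the genes of these lists past 2-fold, beside Slpi, were Csf2ra at 1.01, Ly6c1 at 1.04 and Maf at -1.04. Among the 4 probes of Maf the ratios spanned -1.04 to 0.04, and the call is that of the lowest probe.

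**Figure D4:**
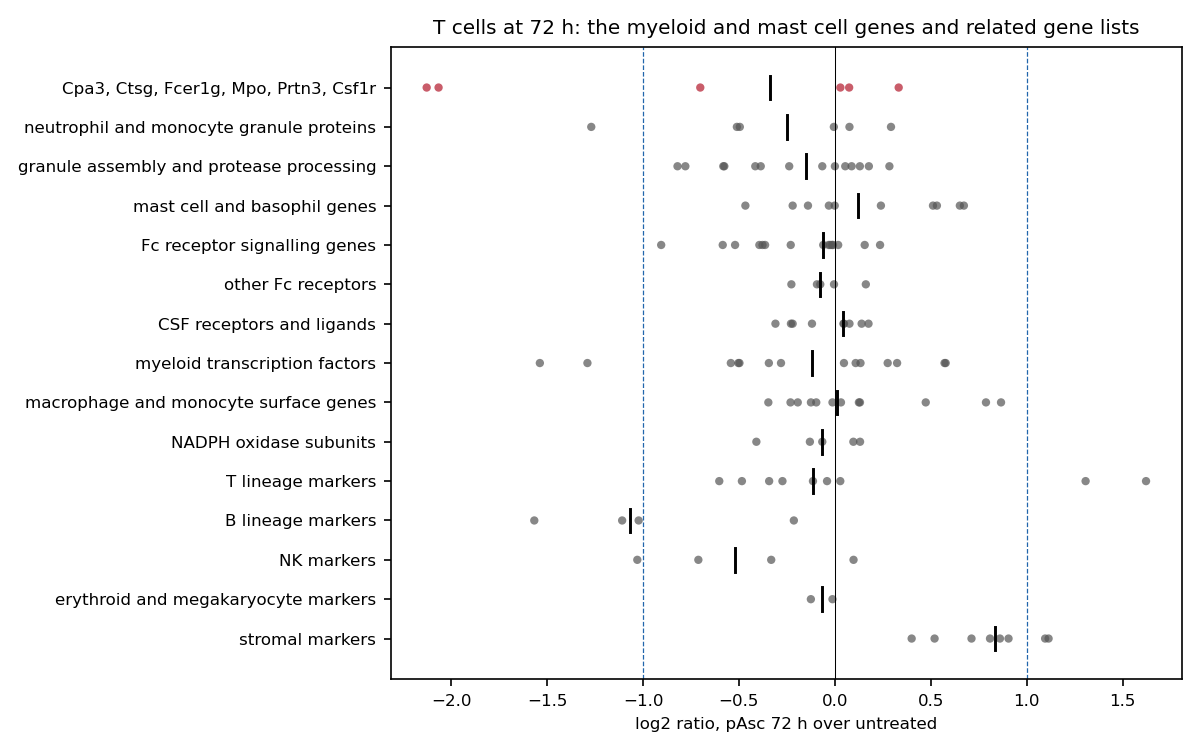
Log2 ratio of pAsc over untreated in T cells at 72 h (horizontal axis) for the 6 measured genes of the set (red, top row) and for the measured genes of each related list (grey); black bars are medians and dashed lines 2-fold. The top row has a median of -0.34, and Lyz2 at -1.27 lies past 2-fold in the second row, where other corrections gave 0 to 3 lower genes.

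Markers of other cell types moved on the same arrays. All 8 measured stromal markers were above 0 at 72 h, with 2 at least 2-fold higher with pAsc (Col1a2 at 1.11 and Fbn1 at 1.1), against 0.227% of all measured genes. Their median was 0.83, and their summed level was 357805 in treated and 204886 in untreated cells. At 24 h 4 of 7 were at least 2-fold higher, against 0.312% of all measured genes, with a median of 1.02. The sum at 24 h was 171870 in treated and 88295 in untreated cells. The sum was 424116 in treated and 307007 in untreated stromal cells. The summed level of the 9 T lineage markers was 99858 in treated and 119334 in untreated cells at 72 h, and 139655 in treated and 128956 in untreated cells at 24 h, and of the 9 only the coreceptor chains Cd8b1 and Cd8a passed 2-fold at 72 h, both upward. At 72 h the 4 NK markers had sums of 11696 in treated and 14803 in untreated cells, and the 6 B lineage markers sums of 1641 in treated and 3798 in untreated cells. The NK marker Klrb1c at -1.03 and the B lineage markers Vpreb1, Blk and Blnk were past 2-fold downward, against 0.375% of all measured genes. At 24 h the sums were 16498 in treated and 18350 in untreated cells for the NK markers. Those of the B lineage markers were 22411 in treated and 19598 in untreated cells. Of the erythroid and megakaryocyte markers 2 were measured at 72 h and 0 were past 2-fold. The part of these markers in the lower Cpa3, Ctsg and Fcer1g was not tested. At 24 h the log2 ratios were -0.21 for Cpa3, -0.55 for Ctsg and -0.52 for Fcer1g. With median centring of all probes the medians of the stromal markers were 1.76 at 72 h and 1.7 at 24 h.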

How the data were processed

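The values are those of 3 deposited Agilent arrays of 2 colours, with 1 array per comparison. The spot intensity values in each channel, a mean signal and a median local background, come from the authors' run of Feature Extraction 10.5.1.1 (Agilent), as the headers say, and are not normalized. The deposited log10 ratio of Cy5 over Cy3 follows background subtraction and dye normalization within the array, per the file headers, and was used as an alternative. All arrays were on 1 slide and in 1 scan.

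Background correction by normexp (offset 50) and loess within each array (span 0.3) were run in limma 3.58.1 under R 4.3.3. Controls and outlier spots, 117 to 130 per array, had weight 0, and 0 spots were saturated. Channels were set across arrays after Aquantile scaling. Spots of a probe were averaged, and the probe with the highest mean brightness stood for its gene. Probes were named through RefSeq accessions (25255), symbols (6239) or synonyms (1602), while 8078 kept their file name. Measured genes had a share of 0.5 or more of their spots well above background in each channel compared. Bounds used the gene's own dim signal where it was above the lowest signal well above background, and otherwise that lowest signal, and are open to dye bias. The steps were tested on simulated arrays. Tables were handled in Python 3.11.15.

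The 8 genes and the 15 related lists were chosen with earlier results of these data known. Named are the 8 genes, up to 4 genes of each list past 2-fold, 9 related genes chosen by name, the 5 genes most like Cpa3 and Ctsg and the nearest 1 for each other gene but Ms4a2, and, chosen after their values were seen, Cst7, Plcg2, Fcgr3, Mcpt8, Irf8, Csf2rb, Cebpd and the mast cell proteases below background. Alternatives were the deposited log ratio, an offset of 0, plain background subtraction, median centring on all probes or on measured genes, quantile scaling or the 75th percentile across arrays, the median over probes, no filter on dim probes and 1.5-fold. A signal of at least 3 times the local background was added after the data were seen.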

Additional observations from a re-analysis of the deposited data

How the results depend on the processing

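Of 100 recomputed counts of the 8 genes, 68 were counts of 0 that stayed at 0. Some of these could not change, since requiring 3 times the local background only removes genes. Of the other 32, 26 stayed within 1.5 times the count given and 6 did not. The log2 ratios of Cpa3 and Ctsg at 72 h kept their sign. Of 137 recomputed log2 ratios of single genes, 74 moved by more than the spread between probes. The 137 include medians over probes, which cannot move for a gene with 1 probe. In untreated cells the count of genes at least 2-fold lower at day 17 than at day 14 was 2 with the 75th percentile of the Agilent signals and 2 with an offset of 0 (Ctsg and Mpo), and 3 at 1.5-fold (Ctsg, Mpo and Cpa3). Of all 15845 measured genes, 1560, 983 and 1812 were lower under these settings, against 572 in the main one. In treated cells the count of the 8 genes was 3 with the 75th percentile and 3 with an offset of 0 (Ctsg, Mpo and Cpa3). Of all 16875 measured genes, 2015 and 1364 were lower there, against 903 in the main setting. Requiring 3 times the local background, added after the data were seen, left 1 gene at least 2-fold lower at 72 h, 1 with a ratio at 72 h at least 1 below that at 24 h and 1 at least 2-fold lower in treated cells of day 17, each time Cpa3 alone, since the dim Ctsg signal was left out. Among all measured genes at 72 h, 61 were at least 2-fold lower and 37 higher, so 62.2% of calls were lower. That share was 36.2% with centring on measured genes and 0.764% with centring on all probes. The counts of lower genes were 165 with the Agilent log ratio, 103 with an offset of 0, 131 with plain subtraction and 12 with centring on all probes. At 24 h, 3.64% of calls were lower; plain subtraction gave 15.8% and the Agilent log ratio 17.9%. In stromal cells 21.5% were lower; centring gave 5.61% on measured genes and 0.0705% on all probes, plain subtraction 36.2% and the Agilent log ratio 44.7%. The cause was not tested. No paired analysis was possible because each comparison rests on 1 array, and for the same reason no replicate could be left out. Signal over background limits what can be read of Mpo, Prtn3, Fcer1a, Csf1r and Ms4a2.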

Other observations

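In untreated T cells several genes around the 8 differed between the days of culture, given here as values. The log2 difference, day 17 minus day 14, was -1.02 for Ctsc, -1.49 for Irf8, a transcription factor of monocytes and dendritic cells, and -1.41 for Csf2rb, the shared receptor chain for Csf2, Il3 and Il5. It was 2.22 for the ligand Csf1, 2.08 for Cebpa and 3.17 for Cebpd. Of 7 measured stromal markers 5 were at least 2-fold higher at day 17 than at day 14 in untreated cells, with a median of 1.85. The share over all genes was 7.74%. Csf1 had log2 levels of 12.6 in treated and 12.43 in untreated T cells of day 17, and 10.7 in treated and 10.21 in untreated T cells of day 14. In stromal cells its levels were 12.7 in treated and 12.78 in untreated cells. The part of stromal RNA in the Csf1 and Cebp values was not tested.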
